A study of Homo sapiens with 24 samples.

Results

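The 8 genes described here, ANLN, ECT2, RACGAP1, PRC1, CEP55, CIT, CHMP4B and RHOA, encode proteins of the cleavage furrow and the midbody, through which a dividing cell separates into its daughters. They were matched by gene symbol among 18417 genes with a value on the arrays, and each was read from the probe set, a group of array probes summarised to a single value, that had the highest mean over all 24 arrays among those naming only that gene. Each gene had 1 such probe set, none was shared with another gene, and all 8 were measured and tested with no filter on low values. The choice of probe set used no expression difference, but the genes themselves were chosen with earlier results of these data known.

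Gene expression was measured in SUM149PT and SUM190PT, human cell lines from inflammatory breast cancer that the labels give as estrogen receptor negative and as carrying a mutated p53. Each line received vehicle (ethanol and DMSO), 10 nM 17β-estradiol, CG-1521, which the series title names as a histone deacetylase inhibitor, or estradiol and CG-1521 together, for 48 h. The CG-1521 dose was 7.5 µM for SUM149PT, which grew with serum, and 5 µM for SUM190PT, which was plated in serum and then treated in medium without it. Line, dose and medium therefore changed together and cannot be told apart. All media held insulin and hydrocortisone, and that of SUM190PT also transferrin, triiodothyronine and albumin. The 8 groups had 3 arrays each, given in the design text as independent experiments, so the p-values measure the spread between experiments on a line. Values are log2 expression, on which a difference of 1 is a 2-fold change, and a gene passed where the limma adjusted p (Benjamini-Hochberg, over all 18417 genes) was under 0.05. Errors of group means are the SD of 3 arrays.

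Cytokinesis starts when the centralspindlin complex, made of RACGAP1 and the kinesin KIF23, gathers with PRC1 at the middle of the spindle and recruits the exchange factor ECT2, which loads the GTPase RHOA at the cell equator. RHOA then drives the contractile ring of actin and myosin, which anillin (ANLN) ties to the membrane and citron kinase (CIT) helps to turn into a stable midbody. CEP55 marks that midbody and brings in the ESCRT machinery, of which CHMP4B forms the filaments that cut the last bridge. Messages of many of these genes are made mainly in G2 and mitosis, while RHOA and the ESCRT-III gene CHMP4B also serve cells that are not dividing.

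Within groups, pairs of arrays correlated across genes at 0.9807 to 0.996, and 0 pairs of arrays were identical. The third vehicle and the third estradiol array of SUM190PT stood apart. The median of 24 DNA replication genes was 7.29 and 7.28 on them. It was 9.30 and 9.12 on the other vehicle arrays and 9.355 and 9.22 on the other estradiol arrays. Luminal epithelial markers had array medians of 10.1 to 10.7 in SUM149PT and 11.2 to 11.96 in SUM190PT, and basal markers 8.47 to 9.45 and 5.49 to 7.13. Fibroblast, leukocyte and endothelial markers had array medians between 3.98 and 5.31 in all 24 arrays. Single markers stood higher, among them CD68 (9.75) and FAP (8.09) in SUM149PT vehicle and PECAM1 (5.86) in SUM190PT vehicle. Some markers of all but the endothelial list moved with CG-1521 against vehicle. Of 9 luminal markers AGR2 and CDH1 rose by 3.88 and 0.48 on the log2 scale and GATA3 fell by 0.92 in SUM149PT, while GATA3 (−1.46), FOXA1 (−1.04), KRT19 (−0.59), ERBB2 (−0.52) and KRT8 (−0.51) fell in SUM190PT. Of 6 basal markers LAMB3 (1.75) and KRT16 (0.48) rose and CAV1 (−1.65) fell in SUM149PT, and KRT16 (1.46), LAMB3 (1.21) and EGFR (1.07) rose in SUM190PT. Among 9 fibroblast markers FAP (−2.22) and DCN (−0.96) fell in SUM149PT and none passed in SUM190PT. Among 8 leukocyte markers CD14 (−0.29) fell in SUM149PT and CD68 rose in both lines (0.88 and 1.91). The part of these markers in the results was not tested.

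In SUM149PT, 7 of the 8 genes fell with CG-1521 against vehicle, and 19.9% of all genes did so. ANLN, the scaffold of the furrow, fell most, by 4.68-fold. PRC1, RACGAP1, CEP55, CIT and ECT2 fell between 2.35-fold and 3.50-fold, and RHOA fell by 1.28-fold. CHMP4B did not pass. In the 7 genes that fell, all 3 treated arrays lay below all 3 vehicle arrays, as they did in 24.7% of all genes.

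ANLN read 9.95, 9.91 and 10.02 with vehicle and 7.71, 7.88 and 7.62 with CG-1521, so that more than 2 log2 units separated the groups on every array. The difference was −2.23 (SE 0.086, adjusted p = 5.02e-11), which ranked 18 from the largest fall of the 18417 genes. PRC1, which bundles the antiparallel microtubules of the spindle midzone, read 10.85, 10.86 and 10.90 with vehicle and 9.08, 9.03 and 9.06 with CG-1521 (difference −1.81, SE 0.076, adjusted p = 1.13e-10). The 3 arrays of each group lay close together, with an SD of 0.029 in both. RACGAP1, the GTPase-activating subunit of centralspindlin, went from 9.20, 9.39 and 9.37 to 7.65, 7.67 and 7.51 (difference −1.71, SE 0.084, adjusted p = 5.32e-10). ECT2, the exchange factor that RACGAP1 recruits, went from 10.16, 10.14 and 10.10 to 8.92, 8.93 and 8.86, and its difference of −1.23 (SE 0.069, adjusted p = 2.02e-09) was the smallest of the 6. These are the proteins that place and switch on the furrow, and their arrays did not overlap between the groups.

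CEP55, the midbody hub, read 9.15, 9.21 and 9.34 with vehicle and 7.68, 7.69 and 7.64 with CG-1521 (difference −1.56, SE 0.087, adjusted p = 1.92e-09). CIT read 7.89, 8.24 and 8.23 with vehicle and 6.95, 6.58 and 6.68 with CG-1521 (difference −1.39, SE 0.112, adjusted p = 9.89e-08). CHMP4B, which acts in the final cut, read 8.75, 8.74 and 8.79 with vehicle and 8.84, 8.78 and 8.66 with CG-1521. Its difference was −0.004 (95% interval −0.19 to 0.19, adjusted p = 0.98), with overlapping arrays. RHOA, the GTPase itself, read 11.69, 11.58 and 11.68 with vehicle and 11.21, 11.31 and 11.36 with CG-1521 (difference −0.36, SE 0.075, adjusted p = 0.0013). Its groups did not overlap, and the 95% interval of its shift, −0.52 to −0.20, lay nearer to 0 than those of the other 6 genes that fell.

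**Figure D1:**
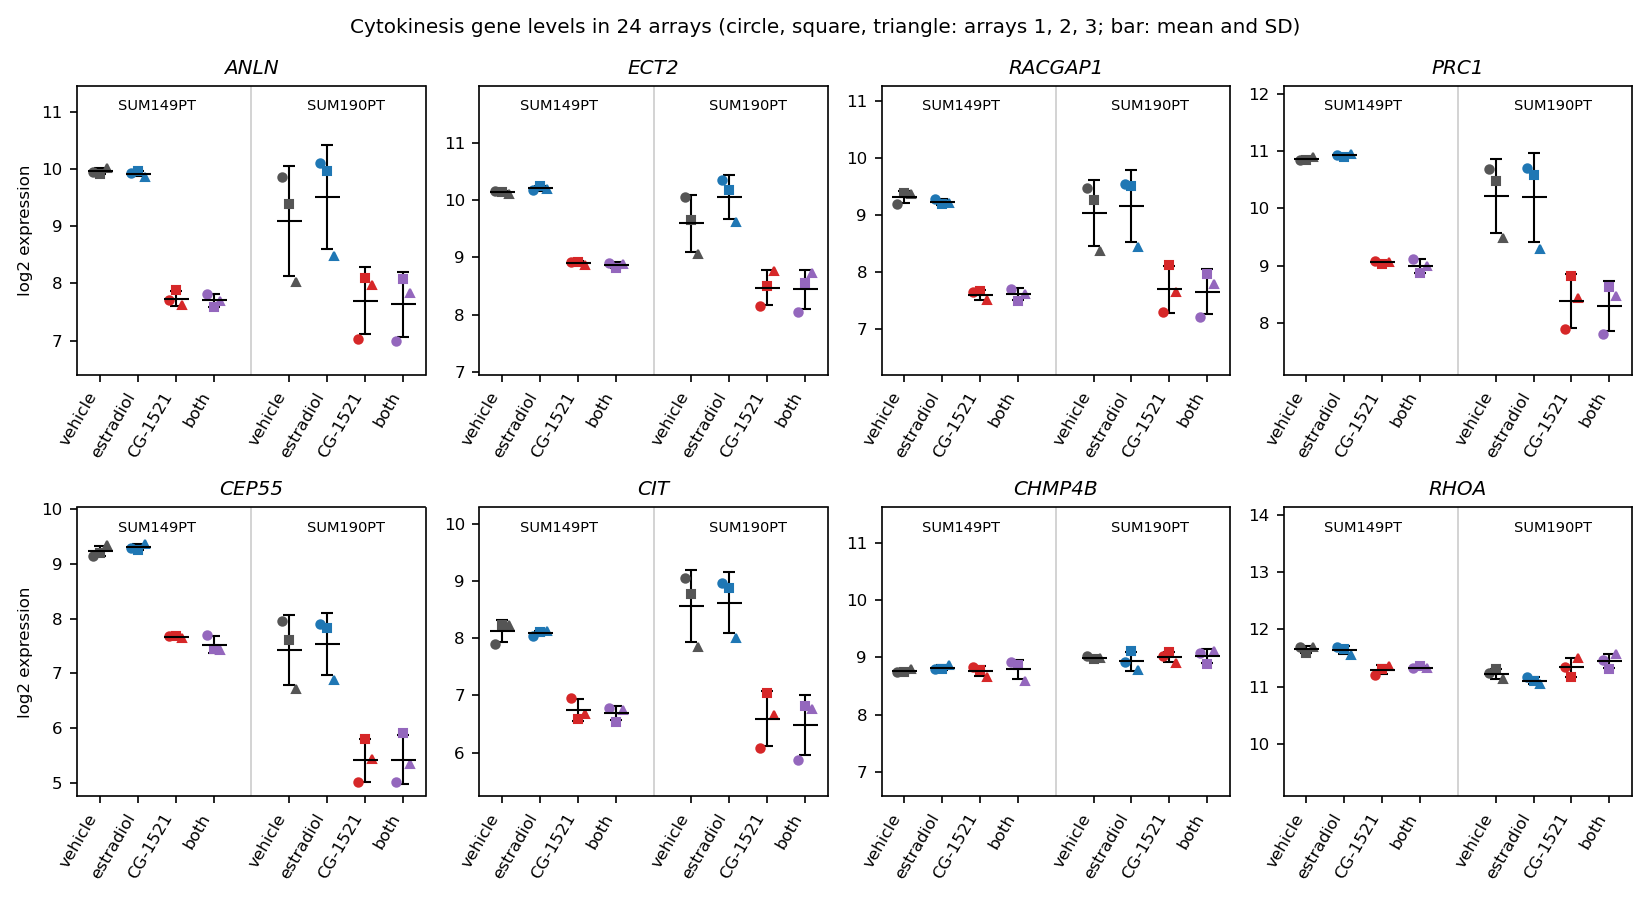
Log2 expression of each gene (vertical axis) on every array of the 8 groups (horizontal axis), with circles, squares and triangles for arrays 1, 2 and 3 and bars for the mean and SD. ANLN, ECT2, RACGAP1, PRC1, CEP55 and CIT stand lower with CG-1521, alone or with estradiol, in both lines, with wide scatter in SUM190PT, while CHMP4B and RHOA stay within a narrow band.

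Many genes of G2 and mitosis are known to carry a short element, the cell cycle genes homology region (CHR), often with CCAAT boxes upstream. The promoters of the 8 genes were therefore searched for both. Windows of 300 bases, from 250 before to 50 after an annotated start, came from RefSeq (GRCh38.p14), and 7 of the 8 genes had one; RACGAP1 did not match. The CHR was searched as the letters TTTGAA and, in its other common form, as TTTAAA; the box upstream was searched as CCAAT. Both strands were read, and although a box can share its last letter with a CHR that follows it, no matches overlapped in these windows. TTTGAA stood in the windows of ANLN, ECT2, PRC1, CEP55 and CIT and in neither that of CHMP4B nor that of RHOA. Of all 35116 windows in the table, 15.2% held TTTGAA, 12.2% TTTAAA and 34.6% CCAAT. No window of the 7 genes held TTTAAA.

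To show the matches in place, the stretch from 130 bases before to 20 bases after the start is printed 5′ to 3′ on the gene's strand. Matches to TTTGAA or CCAAT, read on either strand, are in capitals. The stretches are those of ANLN (chr7:36389732-36389881, plus strand), ECT2 at the first of its annotated starts (chr3:172750596-172750745, plus), PRC1 (chr15:90994516-90994665, minus), CEP55 (chr10:93496482-93496631, plus) and CIT (chr12:119877301-119877450, minus). CHMP4B (chr20:33811218-33811367, plus) and RHOA (chr3:49411957-49412106, minus), the genes that did not follow the others, are printed for comparison.
ANLN: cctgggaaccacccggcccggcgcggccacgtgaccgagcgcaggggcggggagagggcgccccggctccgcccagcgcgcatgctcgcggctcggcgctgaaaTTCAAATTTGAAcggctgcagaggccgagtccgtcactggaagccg
ECT2: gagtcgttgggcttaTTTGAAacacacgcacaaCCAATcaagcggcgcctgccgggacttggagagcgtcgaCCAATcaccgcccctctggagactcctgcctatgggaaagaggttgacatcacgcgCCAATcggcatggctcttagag
PRC1: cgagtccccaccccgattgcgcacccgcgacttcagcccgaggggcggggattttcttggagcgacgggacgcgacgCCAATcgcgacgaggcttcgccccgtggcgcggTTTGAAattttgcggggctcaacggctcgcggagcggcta
CEP55: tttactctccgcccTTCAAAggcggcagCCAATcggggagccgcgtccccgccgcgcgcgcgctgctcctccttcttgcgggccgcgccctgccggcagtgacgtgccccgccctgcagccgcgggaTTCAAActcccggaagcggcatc
CIT: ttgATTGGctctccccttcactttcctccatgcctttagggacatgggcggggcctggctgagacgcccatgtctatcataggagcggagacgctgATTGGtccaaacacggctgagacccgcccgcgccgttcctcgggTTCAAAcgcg
CHMP4B: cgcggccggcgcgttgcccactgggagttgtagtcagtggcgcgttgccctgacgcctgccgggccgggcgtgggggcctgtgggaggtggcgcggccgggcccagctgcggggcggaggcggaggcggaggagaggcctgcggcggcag
RHOA: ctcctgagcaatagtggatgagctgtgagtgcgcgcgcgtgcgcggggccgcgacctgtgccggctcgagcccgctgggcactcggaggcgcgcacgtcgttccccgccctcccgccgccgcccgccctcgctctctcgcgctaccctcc

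In ANLN TTTGAA stood on both strands side by side, from −26 to −21 and from −20 to −15 relative to the start, without a CCAAT in the window. PRC1 held TTTGAA from −20 to −15 with a CCAAT from −53 to −49. CEP55 held it from −116 to −111 and across the start, from −3 to 3, with a CCAAT from −102 to −98. In CIT it lay from 11 to 16 and, outside the printed stretch, from −208 to −203, with CCAAT matches at −127 to −123, −34 to −30 and −213 to −209. ECT2 held it from −115 to −110 and from 35 to 40, with CCAAT matches from −97 to −93, from −58 to −54 and across the start; the window of its other annotated start held TTTGAA from −242 to −237 and from −182 to −177. RHOA held a single CCAAT, from −166 to −162, and CHMP4B no match. These matches are descriptions of letters and were not tested as binding sites.

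**Figure D2:**
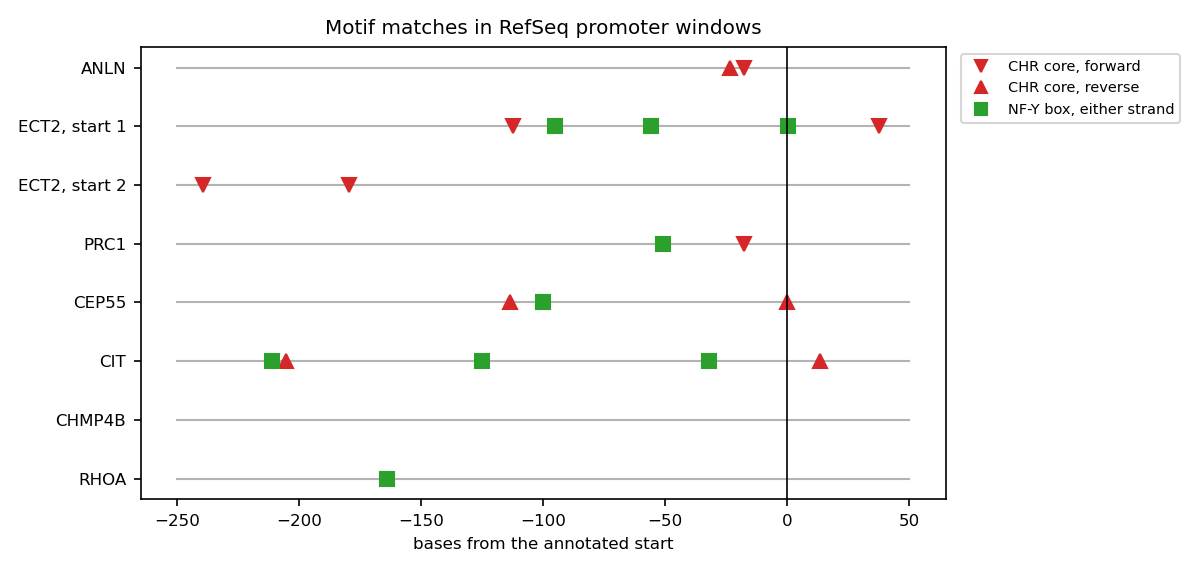
Positions of TTTGAA (CHR core, red; down triangles forward, up triangles reverse) and CCAAT (NF-Y box, green) in the RefSeq promoter windows, in bases from the annotated start (horizontal axis), 1 line per window. TTTGAA appears in all windows of ANLN, ECT2, PRC1, CEP55 and CIT and in none of CHMP4B and RHOA, against 15.2% of all windows.

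In SUM190PT, CG-1521 against vehicle lowered 5 of the 8 genes, and 8.26% of all genes fell. CEP55 fell by 4.02-fold, CIT by 3.91-fold, PRC1 by 3.58-fold, RACGAP1 by 2.53-fold and ECT2 by 2.18-fold. ANLN differed by −1.39 and did not pass, and CHMP4B and RHOA showed no difference past the test. All 3 treated arrays lay below all 3 vehicle arrays in the same 5 genes that passed, as in 17.2% of all genes.

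CEP55 read 7.95, 7.61 and 6.71 with vehicle and 5.01, 5.80 and 5.44 with CG-1521 (difference −2.01, SE 0.348, adjusted p = 0.00214). CIT read 9.05, 8.77 and 7.85 with vehicle and 6.09, 7.04 and 6.65 with CG-1521 (difference −1.97, SE 0.362, adjusted p = 0.00295). In both genes the third vehicle array was the lowest of its group and the first treated array the lowest of all. PRC1 read 10.70, 10.47 and 9.48 with vehicle and 7.89, 8.82 and 8.43 with CG-1521 (difference −1.84, SE 0.397, adjusted p = 0.00759). RACGAP1 went from 9.47, 9.27 and 8.38 to 7.31, 8.13 and 7.66 (difference −1.34, SE 0.342, adjusted p = 0.0184). ECT2 went from 10.06, 9.66 and 9.06 to 8.14, 8.51 and 8.76 (difference −1.13, SE 0.267, adjusted p = 0.0126). For RACGAP1 and ECT2 the gap between the lowest vehicle and the highest treated array was narrow, and their calls depended on single arrays. RACGAP1's adjusted p was 0.0613 without the first vehicle array, 0.0747 without the second, and 0.0879 and 0.0543 without the first or the third treated array, and that of ECT2 was 0.0658 without the first treated array.

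ANLN read 9.86, 9.38 and 8.02 with vehicle and 7.03, 8.09 and 7.97 with CG-1521, and was the only 1 of the 6 genes whose groups overlapped, through the third vehicle array (difference −1.39, SE 0.506, adjusted p = 0.0793). With all 24 arrays of both lines in 1 fit the same difference passed (adjusted p = 0.0101). Without the third vehicle array and the third estradiol array its difference was −1.92 (SE 0.336, adjusted p = 0.00228). In that fit 6 of the 8 genes fell, as did 1731 of all 18417 genes. The arrays left out stood apart by low values in cell-cycle genes, and these 6 genes were low on them too. Leaving them out therefore enlarges these falls. Results without the third arrays, here and below, are not separate support for the falls. The third vehicle array lay below the mean of the first pair by 1.60 in ANLN, 0.80 in ECT2, 0.99 in RACGAP1, 1.10 in PRC1 and 1.07 in both CEP55 and CIT, and by 0.007 in CHMP4B and 0.14 in RHOA. The third estradiol array lay below its pair by 1.56 in ANLN, 1.35 in PRC1 and 0.64 in ECT2, with CHMP4B 0.24 and RHOA 0.089 below. The same arrays were low in the DNA replication genes and in 20 genes of G2 and mitosis. The latter had medians of 7.39 and 7.43 on them, against 8.45 to 8.86 on the other arrays of these groups. The part of these shifts in the results was not tested.

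CHMP4B in SUM190PT read 9.02, 8.96 and 8.99 with vehicle and 9.03, 9.08 and 8.91 with CG-1521 (difference 0.016, 95% interval −0.23 to 0.26, adjusted p = 0.941). RHOA read 11.24, 11.31 and 11.13 with vehicle and 11.34, 11.17 and 11.50 with CG-1521 (difference 0.11, 95% interval −0.13 to 0.36, adjusted p = 0.542). Both genes overlapped between the groups.

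**Figure D3:**
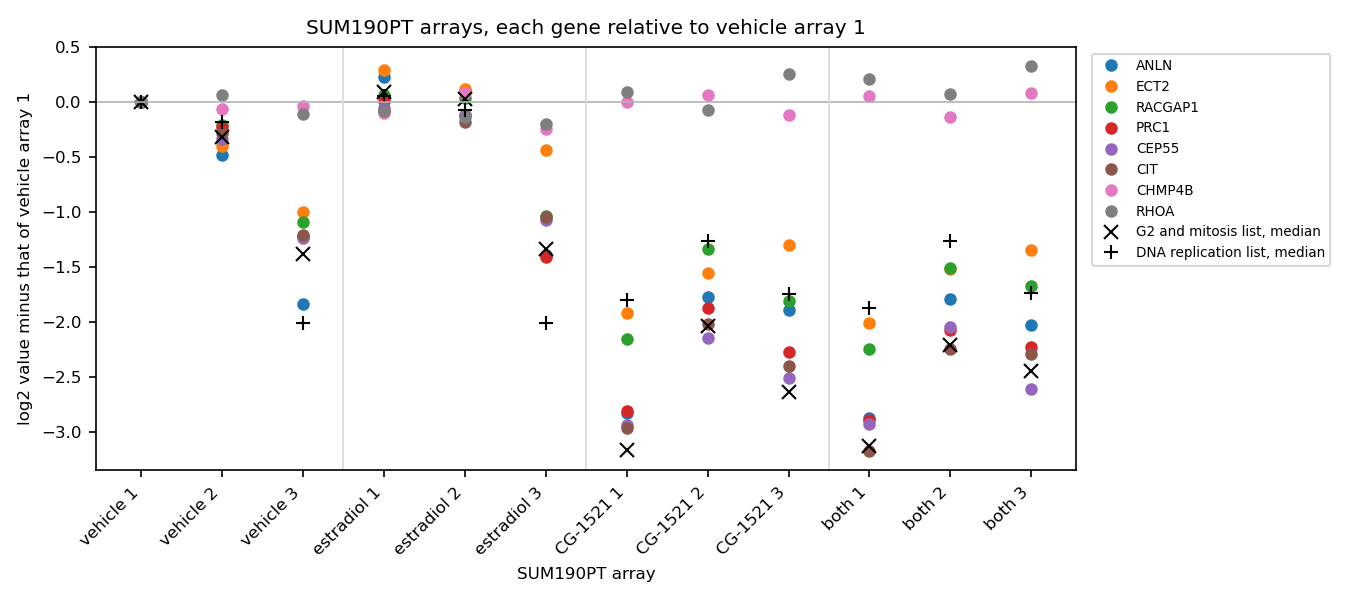
Log2 value of each gene on the 12 SUM190PT arrays minus its value on vehicle array 1 (vertical axis), by array (horizontal axis), with the medians of the G2 and mitosis list (×) and the DNA replication list (+). The third vehicle and estradiol arrays are low in 6 genes and both lists, ANLN by 1.60 and 1.56 against the other arrays of their groups, while CHMP4B and RHOA stay near 0.

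CG-1521 given with estradiol was compared with estradiol alone, which asks whether the response held when the hormone was present. In SUM149PT the same 7 genes fell, and 20.4% of all genes did. ANLN read 9.93, 9.96 and 9.87 with estradiol and 7.82, 7.59 and 7.69 with both agents (difference −2.22, SE 0.086, adjusted p = 4.46e-11). PRC1 differed by −1.94, CEP55 by −1.78, RACGAP1 by −1.61, CIT by −1.40 and ECT2 by −1.33. Arrays of the groups overlapped in none of them, and the share of all genes without overlap was not counted for this comparison. RHOA fell again, by 0.31 on the log2 scale (SE 0.075, adjusted p = 0.00403), and CHMP4B was at −0.025 (adjusted p = 0.858).

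In SUM190PT 6 genes fell with both agents against estradiol alone, and 13.2% of all genes did. ANLN now passed: it read 10.09, 9.96 and 8.47 with estradiol and 6.98, 8.07 and 7.84 with both (difference −1.88, SE 0.506, adjusted p = 0.0179). CIT differed by −2.13 (SE 0.362, adjusted p = 0.00152), CEP55 by −2.11 (SE 0.348), PRC1 by −1.89 (SE 0.397), ECT2 by −1.62 (SE 0.267) and RACGAP1 by −1.50 (SE 0.342). All 6 had their treated arrays below the estradiol arrays, and the share of all genes that did so was not counted. Leaving out the first or second estradiol array, or the first array with both agents, ended ANLN's call (adjusted p 0.0693, 0.0751 and 0.0784), and without the third arrays its difference was −2.40 (adjusted p = 0.000418).

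RHOA went the other way in this comparison. It read 11.16, 11.10 and 11.05 with estradiol and 11.46, 11.31 and 11.57 with both agents. The gene rose by 0.34 on the log2 scale (SE 0.113, adjusted p = 0.0415), as 12.5% of all genes rose. The call was lost without either of 2 of the 3 arrays with both agents (adjusted p 0.104 without the first, 0.141 without the third), without any estradiol array (0.0718, 0.105 and 0.0976) and without the third vehicle and estradiol arrays (0.0905), when only these groups were fitted (0.0512) and with each array centred on its median (0.0575). CHMP4B differed by 0.088 (95% interval −0.15 to 0.33, adjusted p = 0.58).

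Against vehicle, the combination lowered 7 genes in SUM149PT (20.9% of all genes fell), with ANLN at −2.26 (SE 0.086), PRC1 at −1.88, CEP55 and RACGAP1 at −1.71 and −1.70, CIT at −1.44, ECT2 at −1.26 and RHOA at −0.32 (SE 0.075, adjusted p = 0.00295). In SUM190PT it lowered 5 (6.77% of all genes fell), with CEP55 lower by 4.01-fold, CIT at −2.08 (SE 0.362), PRC1 at −1.92, RACGAP1 at −1.38 and ECT2 at −1.16. ANLN differed by −1.46 there (adjusted p = 0.0781; 0.00835 with all 24 arrays in 1 fit), and by −1.99 (adjusted p = 0.00199) without the third arrays. RACGAP1's call ended without the first or second vehicle array (adjusted p 0.0694 and 0.0722) or the first array with both agents (0.0916), and ECT2's without the last of these (0.0675). These comparisons share their vehicle or combination arrays with those above and are not independent of them.

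**Figure D4:**
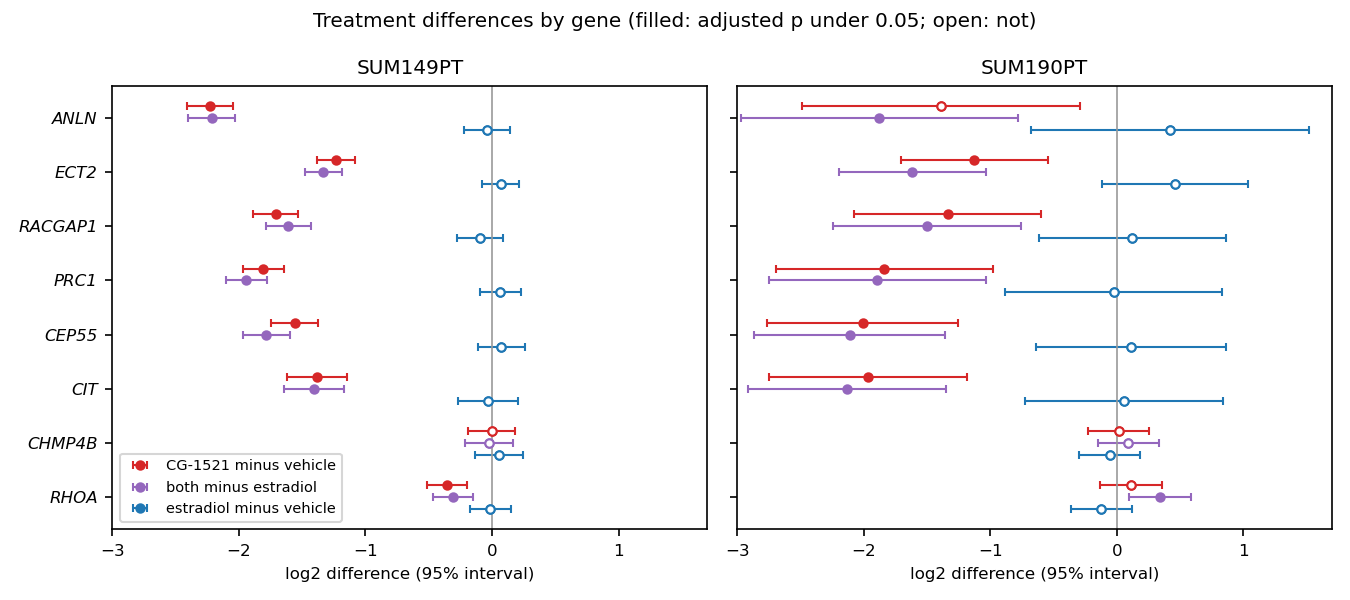
Log2 differences of each gene (horizontal axis, with 95% intervals) for CG-1521 against vehicle (red), both agents against estradiol (purple) and estradiol against vehicle (blue) in each line; filled points had an adjusted p under 0.05. The red and purple points lie between −1.13 and −2.23 for 6 genes, with the red point of ANLN open in SUM190PT, and the blue points lie near 0 in SUM149PT and have wide intervals in SUM190PT.

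None of the 8 genes passed with estradiol alone against vehicle in SUM149PT, where 0% of all genes did. The differences ran from −0.094 in RACGAP1 to 0.075 in CEP55, with 95% intervals no wider than −0.27 to 0.21 (CIT). ECT2 read 10.17, 10.24 and 10.19 with estradiol and differed by 0.068 (95% interval −0.079 to 0.22, adjusted p = 0.998). PRC1 differed by 0.065 (adjusted p = 0.998). With estradiol added to CG-1521 none passed in SUM149PT either (0% of all genes), with differences between −0.15 in CEP55 and 0.037 in RHOA, and the interaction of the agents passed for none (0% of all genes). At an unadjusted p under 0.05 the counts of genes were 845, 1156 and 1046 in these comparisons, with 0 of the 8 genes among them.

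In SUM190PT the fit by group means called none of the 8 genes with estradiol against vehicle, where 0.00543% of all genes (1 gene) passed. ECT2 read 10.36, 10.18 and 9.63 with estradiol against 10.06, 9.66 and 9.06 with vehicle (difference 0.46, 95% interval −0.12 to 1.04, adjusted p = 0.305), and ANLN differed by 0.42 (95% interval −0.68 to 1.52, adjusted p = 0.64). In both genes the estradiol array of each replicate number lay above the vehicle array of that number, by 0.29, 0.52 and 0.56 in ECT2 and by 0.23, 0.58 and 0.44 in ANLN. Arrays of the same number deviated together in these groups. The planned replicate block over all 4 groups called neither gene (519 genes passed). A block by replicate number within the pair was added after the data were seen, and the labels do not state pairing. With that block both genes rose, ECT2 by 0.46 (SE 0.096, adjusted p = 0.0177) and ANLN by 0.42 (SE 0.099, adjusted p = 0.0228), in 3 of 3 pairs. In that fit 17.2% of all genes passed. RACGAP1, also higher in 3 of 3 pairs, differed by 0.12 (adjusted p = 0.396), and RHOA, lower in 3 of 3, by −0.12 (adjusted p = 0.348); CEP55, CIT, PRC1 and CHMP4B lay between −0.055 and 0.11.

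With estradiol added to CG-1521 in SUM190PT none of the 8 genes passed, with or without that block (0% of all genes), and the differences ran from −0.11 in CIT to 0.11 in RHOA. ECT2, for example, read 8.14, 8.51 and 8.76 with CG-1521 and 8.05, 8.54 and 8.72 with both. The interaction, which asks whether CG-1521 lowered a gene more in the presence of estradiol, passed for none by group means (0.516% of all genes). With the block within pairs it passed for ECT2 (−0.49, SE 0.136, adjusted p = 0.0406) and ANLN (−0.49, SE 0.141, adjusted p = 0.0449), as for 13.1% of all genes. That block was added after the data were seen, and the planned replicate block over all 4 groups called 0 genes. At an unadjusted p under 0.05, 4531, 889 and 4159 genes passed by group means in these comparisons, with 0 of the 8 genes among them.

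The lines were then set side by side in vehicle. SUM149PT was higher in CEP55 by 3.50-fold, in ECT2 by 1.45-fold and in RHOA by 1.34-fold, 3 of the 8 genes, where 24.5% of all genes were higher. CEP55 read 9.15 to 9.34 in SUM149PT and 6.71 to 7.95 in SUM190PT (difference 1.81, SE 0.270, adjusted p = 5.59e-06), and it remained at 1.45 (adjusted p = 2.06e-06) without the third arrays. The midbody kinase CIT leaned the other way (−0.44, adjusted p = 0.232), and without the third arrays it was lower in SUM149PT by −0.79 (SE 0.233, adjusted p = 0.00754). ECT2's difference of 0.54 (SE 0.204, adjusted p = 0.0342) was 0.27 without them (adjusted p = 0.197). It was also lost without any 1 of the SUM149PT arrays (0.0781, 0.0722 and 0.0629) or the second SUM190PT array (0.0535). ANLN and PRC1 stood at 0.87 (adjusted p = 0.0729) and 0.65 (adjusted p = 0.0879), and without the first SUM190PT vehicle array both passed, at 1.26 (adjusted p = 0.0134) and 0.89 (adjusted p = 0.0299). RACGAP1 stood at 0.28 (adjusted p = 0.423), and CHMP4B at −0.23 (adjusted p = 0.0598), which passed after quantile normalization (−0.31, adjusted p = 0.0104), with arrays centred on their medians (−0.25, adjusted p = 0.0433) and without the dimmest 50% of genes (adjusted p = 0.0397).

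The CG-1521 response of the lines differed in 1 of the 8 genes by the test of the difference itself. RHOA's response in SUM149PT minus that in SUM190PT was −0.47 (SE 0.128, adjusted p = 0.0118), where 11.6% of all genes had a lower response in SUM149PT, and it was −0.42 (adjusted p = 0.0323) without the third arrays. Without these arrays CEP55 and CIT also differed, by 0.81 (SE 0.265, adjusted p = 0.0356) and 0.94 (SE 0.313, adjusted p = 0.0385), with the larger fall in SUM190PT. In that fit 1560 of all 18417 genes had a higher and 2054 a lower response in SUM149PT. With all arrays CEP55 and CIT stood at 0.45 (adjusted p = 0.444) and 0.58 (adjusted p = 0.335). ANLN's difference of −0.83 had a 95% interval from −1.98 to 0.31, and PRC1's of 0.030 one from −0.86 to 0.92, so these arrays allow unequal responses of either sign in PRC1.

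Ordered by group mean, 5 of the 6 responsive genes, all but CEP55, fell into an upper and a lower set of groups. For ANLN the means were 9.96 ± 0.056 and 9.92 ± 0.046 (SD, n = 3) in SUM149PT vehicle and estradiol, 9.51 ± 0.904 and 9.09 ± 0.954 in SUM190PT estradiol and vehicle, and between 7.63 and 7.73 in all 4 groups with CG-1521. Neighbouring groups in that order overlapped except at the step of 1.36 between SUM190PT vehicle and SUM149PT CG-1521. Single arrays of the upper and lower sets still overlapped in SUM190PT. The third vehicle array (8.02) lay below the second arrays with CG-1521 (8.09) and with both agents (8.07). By group mean, ECT2, RACGAP1, PRC1 and CIT had the same split between 4 untreated or estradiol groups and 4 groups with CG-1521. The gaps between the sets of means were 0.69, 1.34, 1.14 and 1.35. CIT was the only 1 of these with SUM190PT estradiol and vehicle (8.62 ± 0.531 and 8.56 ± 0.632) above SUM149PT vehicle (8.12 ± 0.197), though their arrays overlapped. CEP55 was ordered by line as well: SUM149PT with CG-1521 (7.67 ± 0.027) stood next to SUM190PT estradiol (7.54 ± 0.571) with overlapping arrays, and SUM190PT with CG-1521 was lowest, at 5.42 ± 0.396. For CHMP4B the means ran from 8.76 to 9.02 and for RHOA from 11.1 to 11.65, with every neighbouring pair of groups overlapping.

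The 6 genes varied together over the arrays. After the mean of each line was subtracted, the 15 pairs among them correlated over 24 arrays with Pearson's r of 0.936 to 0.993 (median 0.973); the arrays share treatments and form treated and untreated clusters, so r is a description. The most similar other genes were TPX2 (0.992) and CCNA2 (0.990) for ANLN, ASPM (0.987) and GPSM2 (0.986) for ECT2, and LMNB1 (0.995) and SPAG5 (0.994) for RACGAP1. PRC1 and CEP55 both had PLK1 first (0.997 and 0.995), followed by CCNB1 (0.994) and NCAPD2 (0.992). For CIT they were TOP2A (0.993) and PTTG1 (0.992). CHMP4B had no close neighbour, with CXorf65 at 0.661 and STAG3 at 0.650, and RHOA's pattern was nearest to that of DHRS2 (0.924) and SERPINH1 (0.874).

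The remaining central spindle genes moved as the 6 did. Of 10, all fell with CG-1521 in SUM149PT (median −1.77) and 9 in SUM190PT (median −1.61), with INCENP at −0.37 (adjusted p = 0.298); without the third arrays all 10 fell. KIF23, RACGAP1's partner in centralspindlin, fell by 2.09 in SUM149PT (SE 0.093, adjusted p = 1.77e-10) and by 1.65 in SUM190PT (SE 0.356, adjusted p = 0.0075) on the log2 scale. KIF20A, the kinesin that carries the chromosomal passenger complex to the midzone, had the largest falls, −2.80 and −2.64. KIF20B stood at −2.23 in SUM149PT, and KIF4A, which binds PRC1, and the kinase PLK1 at −2.25 and −2.18 in SUM190PT. All genes had median differences of −0.002 and −0.048, with 2655 up and 3664 down in SUM149PT and 1532 up and 1521 down in SUM190PT; with arrays centred on their medians the SUM190PT counts were 2069 and 1048.

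The contractile ring genes divided. Of 22 measured, 15 fell and 2 rose in SUM149PT (median −0.38), where 19.9% of all genes fell and 14.4% rose. ARHGAP11A, a RHOA-inactivating protein, differed by −1.93, the formin DIAPH3 by −1.84 and MYH10, a nonmuscle myosin heavy chain, by −1.23, while MYH14, another such chain, and SEPTIN10 rose by 0.58 and 0.34. In SUM190PT 4 rose and 3 fell (median −0.028), where 8.32% of all genes rose and 8.26% fell: MYH14 at 1.31 (SE 0.182), SEPTIN10 at 0.71, MYH9 at 0.59 and MYL12A at 0.45 rose, and MYH10 at −0.60, SEPTIN6 at −0.55 and CFL1 at −0.37 fell. The lowest difference of the list in SUM190PT was −1.64, in a gene that did not pass. Without the third arrays 4 rose and 6 fell, where 1486 of all 18417 genes rose and 1731 fell.

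Few of the other ESCRT genes fell. Of 21 ESCRT and abscission genes 7 rose and 2 fell in SUM149PT (median 0.014), against 14.4% and 19.9% of all genes. In SUM190PT 4 rose and 1 fell (median 0.21), against 8.32% and 8.26% of all genes. CHMP5 rose in both, by 0.91 and 0.82, VPS28 and VPS37A by 0.62 and 0.49 in SUM149PT, CHMP2B by 0.57 in SUM190PT, and CHMP7 fell by 1.18 on the log2 scale there (SE 0.204, adjusted p = 0.00206). CHMP4C, CHMP4B's relative, stood at −0.067 and 0.26 (adjusted p 0.558 and 0.328), and CHMP4A was not analysed here.

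**Figure D5:**
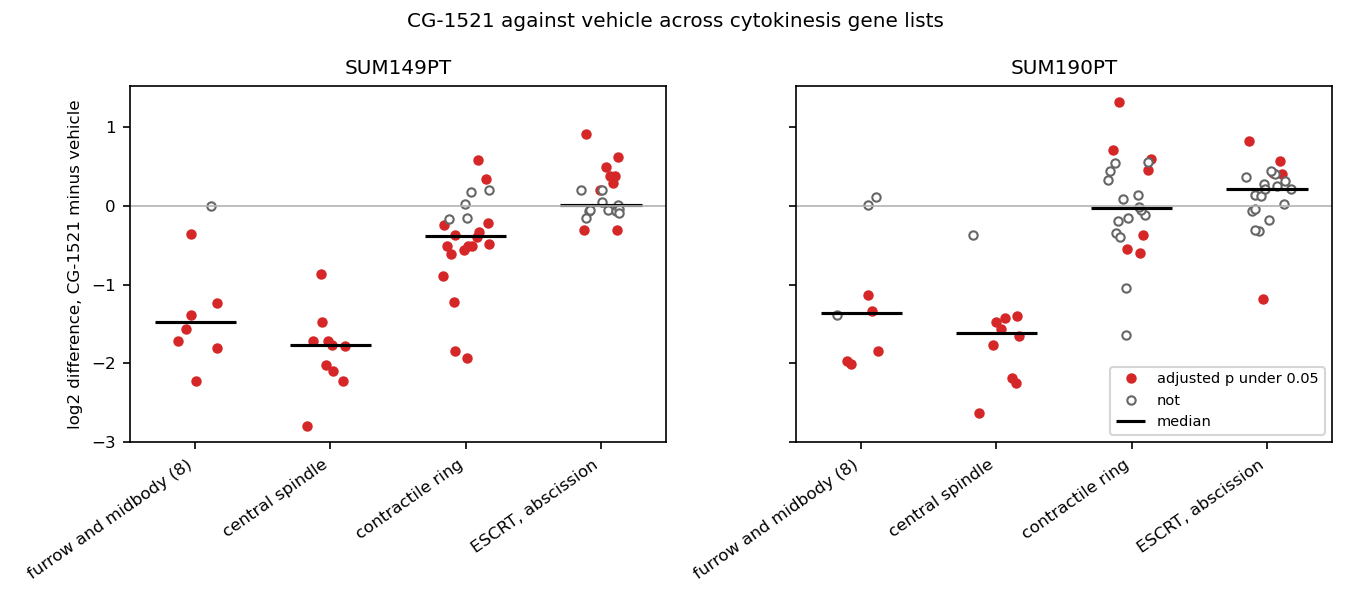
Log2 difference of CG-1521 against vehicle (vertical axis) for the 8 genes and 3 other cytokinesis lists (horizontal axis) in each line, 1 point per gene, filled red where the adjusted p was under 0.05, with a bar at the median. The medians were −1.77 and −1.61 for the central spindle list and 0.014 and 0.21 for the ESCRT list, in SUM149PT and SUM190PT.

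General cell-cycle genes moved beside these genes. In SUM149PT all 20 G2 and mitosis genes fell with CG-1521 (median −1.91), with array medians of 9.32 to 9.39 in vehicle and 7.30 to 7.58 with the drug, and all 24 DNA replication genes fell (median −1.33). In SUM190PT 19 of the 20 fell (median −1.88), with MYBL2 at −1.35 (adjusted p = 0.0591), and the array medians were 7.39 to 8.77 in vehicle and 5.60 to 6.73 with the drug. Of the replication genes 1 passed there, RFC3 at −1.77 (adjusted p = 0.0107), and 23 did without the third arrays (median −1.48). Each array holds the RNA of many cells, so fewer dividing cells and less of these messages in each dividing cell cannot be told apart.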

How the data were processed

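RNA of 24 cultures was column-purified, amplified, biotin labelled and hybridized, per the labels' protocols. The authors deposited log2 values made with RMA in Affymetrix Expression Console, per the submitters' processing notes (versions not stated); joint or separate normalization of the lines is not given in the sources used here. Of 33297 probe sets, 19460 named a single gene, and the one with the highest mean per gene gave 18417 genes. Array number limits the precision.

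limma 3.58.1 in R 4.3.3 (lmFit, eBayes, two-sided, Benjamini-Hochberg; statmod 1.5.0) was fitted to the 12 arrays of each line for contrasts within lines and to all 24 for contrasts between lines. On simulated data with 18417 genes it recovered, for CG-1521 against vehicle, 98% of 100 changes of 1 log2 unit in SUM149PT and 84% in SUM190PT. The changed genes were drawn at random, and the simulated noise was independent between genes and arrays, unlike the shared shifts seen in SUM190PT. Recovery was not measured for the 8 genes. Named genes were the 8, up to 3 largest called changes per list and line, the 2 most similar genes per gene, and KIF23, CHMP4A and CHMP4C. Other cell-type marker, contractile ring, cell-cycle and central spindle genes were named, after their values were seen, where a count was short; 1 further list and its genes are not reported here. The genes and lists were chosen with earlier results of these data known.

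Replicate numbers were checked for pairing by correlating same-numbered arrays' deviations from group means across genes. All 3 exceeded 0.1 only in SUM190PT, for estradiol with vehicle (0.443, 0.229, 0.729) and combination with CG-1521 (0.518, 0.434, 0.502). Alternatives were a replicate block, other sample sets, quantile normalization, median centring, removal of dim genes, trended robust variances, and leaving arrays out. Sequences came from RefSeq (GRCh38.p14). Tables and plots used Python 3.11.15, pandas 2.3.3, numpy 2.4.6 and matplotlib 3.10.9.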

Additional observations from a re-analysis of the deposited data

Results flagged for a closer look

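Of the genes whose response the report names, 15 differed between the lines in their response to CG-1521 by limma's test of the difference itself. That test took the SUM149PT response minus the SUM190PT response, with line, dose and medium changing together. Of all 18417 genes, 1660 had a higher and 2141 a lower response in SUM149PT. Genes were named partly for called changes with CG-1521 or after their values were seen. The 15 are therefore a selected set, and their number cannot be compared with the counts over all genes. RHOA, the only 1 among the cleavage furrow and midbody genes, stood at −0.468 (SE 0.128, adjusted p = 0.0118): it fell in SUM149PT and did not pass in SUM190PT.

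The nonmuscle myosin heavy chains MYH10 and MYH14 stood at −0.628 (SE 0.147, adjusted p = 0.00374) and −0.731 (SE 0.211, adjusted p = 0.0161). MYH10 fell in both lines, further in SUM149PT, and MYH14 rose in both, further in SUM190PT. The ESCRT-III genes CHMP7 and CHMP2B stood at 1.197 (SE 0.224, adjusted p = 0.000551) and −0.721 (SE 0.183, adjusted p = 0.007), with the fall of CHMP7 and the rise of CHMP2B called in SUM190PT. MYH9, a further myosin heavy chain, stood at −1.209 (adjusted p = 1.97e-06), with a fall called in SUM149PT and a rise in SUM190PT.

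The other 9 were cell-type markers. The luminal markers AGR2 and FOXA1 stood at 3.700 (adjusted p = 1.2e-10) and 1.087 (adjusted p = 6.42e-06). The basal markers LAMB3, KRT16, CAV1 and EGFR stood at 0.536, −0.981, −2.317 and −1.129 (adjusted p 0.0375, 0.0326, 2.23e-06 and 9.13e-05). The fibroblast markers FAP and DCN stood at −2.357 and −1.066 (adjusted p 2.92e-10 and 0.00147), and CD68, a leukocyte marker, at −1.025 (adjusted p = 0.000217). What sets these differences was not tested.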

How the results depend on the processing

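The counts of the 8 genes in SUM149PT were the same under every alternative run: 7 of 8 genes in each of the 3 comparisons with CG-1521, also on leaving out any single array. In SUM190PT they ran from 3 to 6 for CG-1521 against vehicle and for the combination against vehicle, and from 5 to 7 for CG-1521 added to estradiol, when single arrays were left out; the comparison of lines in vehicle gave 2 to 5. No called value changed sign. Over all genes, leaving out single arrays gave 1567 to 3082 (CG-1521 against vehicle in SUM190PT, 3053 with all arrays), 2605 to 4513 (added to estradiol, 4732) and 1252 to 2248 (combination against vehicle, 2466). It gave 0 to 2261 for estradiol against vehicle (1 with all arrays) and 0 to 1655 for the interaction (95) in SUM190PT, and 0 to 1 for both in SUM149PT. It gave 3029 to 4713 for the response difference (3801).

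With all 24 arrays in 1 fit the SUM190PT counts were 5070 (CG-1521), 4242 (combination), 2990 (estradiol), 7 (estradiol added to CG-1521) and 2540 (interaction). For estradiol against vehicle the count was 519 with a replicate block over all 4 groups, 3168 with the replicate block within pairs (added after seeing the data; 2 of the 8 genes), 0 with only the groups compared, 4 after quantile normalization, 2 without the dimmest 50% of genes and 0 without the third arrays. For the interaction it was 0 and 2414 with these blocks (2 of the 8 genes in the latter), 5 after quantile normalization, 10 with median centring, 1 without the dimmest genes, 4 with trended robust variances and 1 without the third arrays. Leaving the third arrays out gave 1 gene for estradiol added to CG-1521, and 3 of the 8 genes for the response difference (1560 of all genes higher and 2054 lower in SUM149PT). The replicate block changed the combination's ANLN call in SUM190PT (−1.46, adjusted p = 0.0478) and, between lines in vehicle, those of ANLN (1.30, adjusted p = 0.0223), PRC1 (1.04, adjusted p = 0.0149) and ECT2 (0.65, adjusted p = 0.055). The cause of these changes was not tested.

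Median centring moved the share of falls among called genes in SUM190PT from 49.8% to 33.6% for CG-1521 against vehicle, and the share of negative interactions from 27.4% to 90% (100% after quantile normalization). Among genes called for the response difference, it moved the share with the lower response in SUM149PT from 56.3% to 70%.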
